A study of Mus musculus with 24 samples.

Results

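The comparison is between 2 stages of attached monolayer culture of P19 cells, a line of mouse embryonal carcinoma with many properties of pluripotent embryonic cells. The 3 monolayer samples labelled D2 were set against the 3 labelled D1, which makes 6 of the 12 RNA samples of the series. The other 6 samples, 3 at each stage, came from suspension culture and were used for the pooled spread and for a side-by-side view. Neither the genotype, the treatment nor any agent is said to differ between the groups. All monolayer cells grew in alpha medium with 2.5% fetal bovine and 7.5% calf serum, and the labels neither spell out D nor name an inducer. A single cell line was studied, and the labels do not say whether replicates are separate cultures, so p-values measure only the spread between these samples, which may be technical. Each RNA was read on 2 Affymetrix chips, MOE430A and MOE430B, so the comparison rests on 12 arrays. Values are the deposited MAS5 signals, linear brightness values of a probe set, and each gene is represented by its brightest tested probe set over both chips. Differences are D2 minus D1 on a log2 scale after adding an offset to every signal, 51.0 on MOE430A and 108.1 on MOE430B, with standard errors from limma. Because of the offset, differences of dim genes are understated.

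Several of the gene groups described here answer to known sensors. Shortage of amino acids activates the kinase GCN2, and unfolded protein in the endoplasmic reticulum (ER) activates the kinase PERK. Both slow general translation and favour translation of the transcription factor ATF4, which with C/EBP partners drives genes for amino acid synthesis, amino acid transport and tRNA charging. The ER sensors ATF6 and IRE1 drive chaperones and the machinery that removes misfolded protein. SREBP factors control sterol and fatty acid synthesis, E2F factors the genes of DNA replication, and the MuvB complex those of mitosis. Embryonal carcinoma cells are known for rapid proliferation and for high levels of Pou5f1, Sox2 and Nanog.

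The median signal of an array was 510.6 to 636.7 on MOE430A, and on MOE430B it was 758.9 to 923.4. The samples did not sort cleanly by stage, and D1 replicate 2 lay nearest to D2. Over 26516 tested probe sets the log2 values of D1 replicate 2 correlated with D2 replicates 1 and 2 at Pearson's r = 0.897 and 0.899, and with D1 replicates 1 and 3 at 0.876 and 0.862, as the matrix of correlations shows. D2 replicates 1 and 2 correlated at 0.896 with each other, and D1 replicate 1 at 0.886 with D2 replicate 1 and at 0.884 with D1 replicate 3. The deviations of D1 replicate 2 from the D1 mean correlated at 0.214 with those of the suspension D1 sample of the same number. Values without this sample are given beside the results as a description. Because it was singled out for its likeness to D2, leaving it out widens the distance between the stages by construction, so what passes only without it is no support for a difference. What is called the washing batch here is the recorded fluidics station with the recorded hybridisation time, late for PM and early otherwise. It coincides with the replicate number in monolayer, so each batch holds 1 D1 and 1 D2 sample. Differences within a batch are therefore those between samples of the same number, and fitting the batch as a block leaves every difference as it is (largest change 0.0). Hybridisation controls were brighter on the replicate 3 arrays of both stages, by 2.22-fold for bioB and 2.04-fold for cre on MOE430A.

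**Figure D1:**
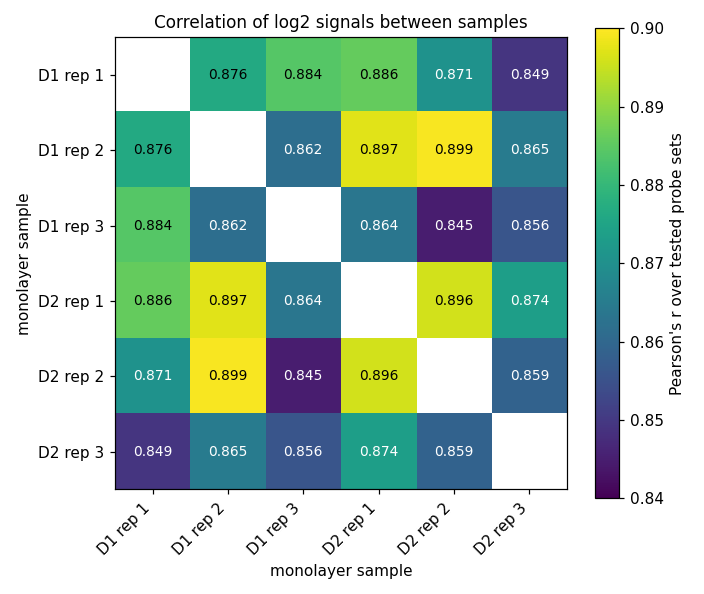
Pearson's correlation of log2 signals over 26516 tested probe sets between the 6 monolayer samples, each drawn on both axes (rep, replicate). D1 replicate 2 correlates at 0.897 and 0.899 with D2 replicates 1 and 2, above its 0.876 and 0.862 with the other D1 samples.

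Control signals that were left out of the test differed between the stages too. The B1 repeat probe set, which reads a short interspersed repeat carried in many transcripts, gave 37920.2, 29782 and 37221 at D1 and 18185, 9434 and 16826 at D2 on MOE430A. It was 2.44-fold lower at D2 on MOE430A and 2.37-fold lower on MOE430B with no overlap of the groups (two-sided exact permutation p = 0.1 for both chips, which 3 against 3 samples cannot go below). The 18S ribosomal RNA signal on MOE430A was 29953, 45419 and 11309 at D1 and 39070.0, 60144 and 37136 at D2, with overlapping groups (two-sided exact permutation p = 0.3). As a check of RNA quality, the 3' probe set of beta-actin over its 5' probe set on MOE430A lay between 0.998 and 1.21 at D1 and between 1.04 and 1.24 at D2. The part of these signals in the results below was not tested.

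The cells carried the markers of a pluripotent line at both stages. All 12 pluripotent cell markers on the chips had a mean signal above the chip median, and their summed signal was 184143 to 196561 at D1 and 175575 to 177214 at D2. Of the markers of other cell types, 6 of 13 neuron, 4 of 15 muscle, 3 of 13 fibroblast, 5 of 14 blood cell, 3 of 13 visceral endoderm and 4 of 10 trophoblast markers had a mean above the chip median. MAS5 signals are rarely 0, and since no detection calls entered, a dim marker cannot be called absent. The summed neuron markers were 18115 to 34504 at D1 and 15124 to 19272 at D2. Their brightest member by mean was Nefl, a neurofilament gene on MOE430B, which read 24136, 7288 and 18132 at D1 and 8900.3, 7441 and 6153 at D2. All such sums add signals of both chips, whose scales differ. The summed signals were 6592 to 7599 and 6338 to 8360.1 for muscle, 5778 to 6687 and 4482 to 6268 for fibroblast, 6146 to 8122 and 5531 to 6341 for blood cell, 6257 to 7949 and 4691 to 6429 for visceral endoderm and 7941 to 9771 and 6856 to 8694 for trophoblast markers, at D1 and D2. In such bulk samples fewer cells of a type and less RNA per cell cannot be told apart.

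The test over both chips was passed by 2 genes, 1 higher and 1 lower at D2. Plekhg5, which encodes a guanine nucleotide exchange factor, read 367.2, 371.6 and 272.5 at D1 and 1214, 1355 and 1012 at D2 on probe set 1452248_at. It rose 3.21-fold by this probe set, a log2 difference of 1.68 ± 0.22 (SE, n = 3 and 3, limma adjusted p = 0.0468), and all D2 samples lay above all D1 samples. Cbr3, which encodes a carbonyl reductase, read 1252, 562.2 and 1034 at D1 and 91.4, 83 and 138.2 at D2 on probe set 1427912_at. It fell 6.22-fold, a log2 difference of -2.64 ± 0.36 (adjusted p = 0.0468), again with no overlap. Within the 3 pairs of samples that share a number and a washing batch, Plekhg5 differed by 1.60, 1.73 and 1.72 and Cbr3 by -3.19, -2.19 and -2.52. With the washing batch as a block both had an adjusted p of 0.0658 and neither passed. The D1 mean of Plekhg5 and the D2 mean of Cbr3 lay below the median signal of MOE430A, 599.8, and were not tested against background, so the sizes of these differences are uncertain.

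Across both chips 2 of 26516 probe sets (0.00754%) had an adjusted p under 0.05, and 2116 had an unadjusted p under 0.05, 1101 higher and 1015 lower at D2. Over 12727 genes, 4.66% were higher and 4.23% lower at D2 at an unadjusted p under 0.05. Groups did not overlap for 6.62% of genes in the upward and 6.81% in the downward direction. The median log2 difference of all genes was 0.00. Without D1 replicate 2, 225 probe sets (0.849%) passed, against 0 when any other single monolayer sample was left out, and both genes named above were among them with an adjusted p of 0.0105 and 0.0105. By gene, 0.629% were then higher and 0.44% lower at D2 at an adjusted p under 0.05, and 7.72% higher and 6.11% lower at an unadjusted p under 0.05. These shares are the background for every count below, where a member counted at an unadjusted p under 0.05 did not pass over all genes unless this is stated.

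Among genes with an unadjusted p under 0.01, groups apart and a group mean above the 75th percentile of signals, 131 were higher and 114 lower at D2. Of these the 12 with the largest difference in each direction are named. Higher at D2 were Ddit3, Niban1, Rnf185, Cebpb, C2, 2410006H16Rik, Zhx3, Tmem102, Aldh1l2, Apobec2, Pck2 and Trib3, with log2 differences from 1.73 to 2.47 and adjusted p from 0.127 to 0.413. Of these 12, Ddit3, Cebpb, Aldh1l2, Pck2 and Trib3 are known members of the ATF4 response. Pck2, the mitochondrial form of phosphoenolpyruvate carboxykinase, read 1299.8, 5715 and 1856 at D1 and 8415, 7735 and 8902 at D2, a difference of 1.77 ± 0.41. Niban1, a stress-responsive gene, read 741.8, 1357 and 538.1 at D1 and 3844, 6665 and 4840.2 at D2, a difference of 2.45 ± 0.61. D1 replicate 2 had the highest D1 signal for both genes, and its omission gave Pck2 a difference of 2.39 that passed (adjusted p = 0.0105) and Niban1 one of 2.78 that did not (0.0685). Rnf185, which encodes a ubiquitin ligase of ER-associated degradation, read 1413, 1315 and 1698 at D1 and 6709.6, 11280.3 and 7250.2 at D2, but its other tested probe set differed by 0.47 only. 2410006H16Rik read 16024, 69385 and 19690.1 at D1 and 92299, 98229.9 and 127337 at D2, so that D1 replicate 2 lay nearer to D2 than to the other D1 samples. C2, a complement component, differed by 1.95 ± 0.41, Tmem102 by 1.85 ± 0.36 and Apobec2 by 1.83 ± 0.60. Zhx3 differed by 1.87 ± 0.42, while the lowest of its 3 tested probe sets gave -0.30.

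Lower at D2 were 4930542N06Rik, Sptb, Krt78, Tyw3, Fpgt, Shisa6, Mgat3, Prkar1b, Rusc1, Ccne1, Car2 and Znhit1, with log2 differences from -2.07 to -1.18 and adjusted p from 0.0798 to 0.41. The transcript 4930542N06Rik read 2175, 3314 and 2722 at D1 and 525.7, 730.0 and 449.1 at D2 and differed by -2.07 ± 0.32, with a difference of 0.54 ± 0.32 in suspension. Car2, a carbonic anhydrase gene, read 16256, 6332 and 16611 at D1 and 5777, 4515 and 5422 at D2 and Znhit1, which encodes a subunit of the SRCAP chromatin remodeller, 3389, 1857 and 3396 at D1 and 915.4, 1351 and 1374 at D2. In both genes D1 replicate 2 held the lowest D1 signal. Without it Car2 differed by -1.65 (adjusted p = 0.0296), Znhit1 by -1.47 (0.0122) and 4930542N06Rik by -1.93 (0.0308), and all 3 passed. The genes Krt78, Tyw3, Fpgt, Shisa6 and Mgat3 had differences from -1.42 to -1.31. For Sptb, Prkar1b and Rusc1, at -1.52, -1.29 and -1.20, another tested probe set pointed the other way, at 0.01, 0.07 and 1.66.

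**Figure D2:**
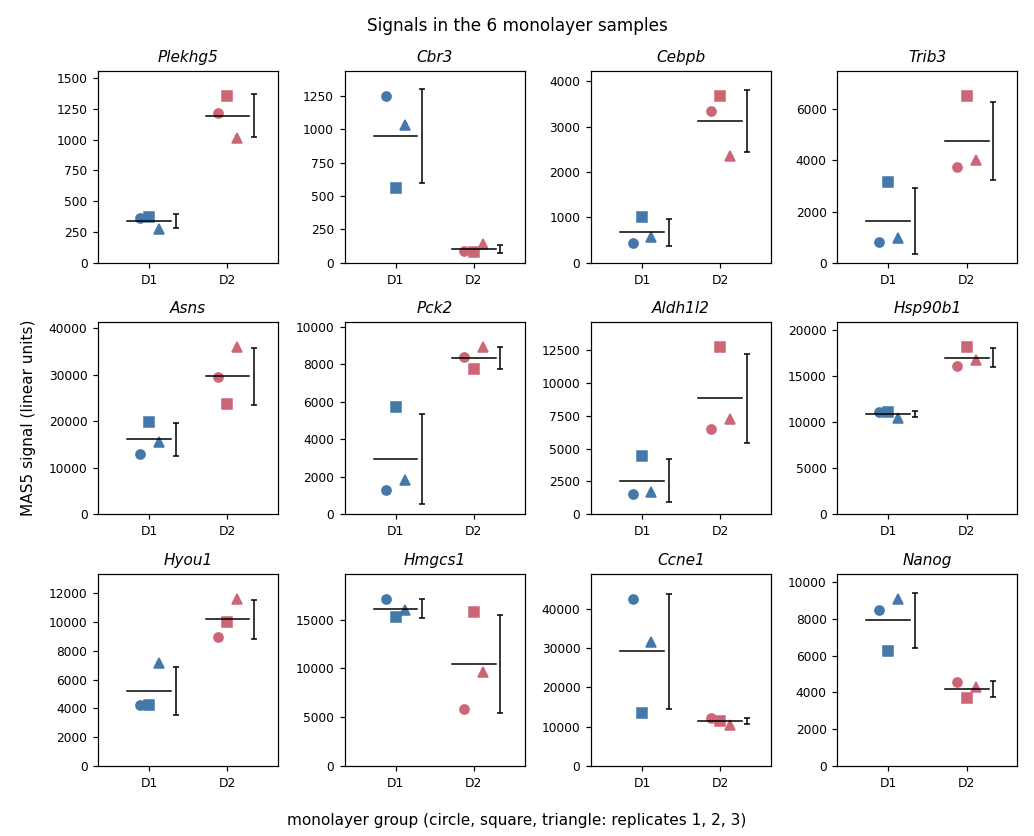
MAS5 signal (linear units) in the 3 D1 and 3 D2 monolayer samples for 12 genes. Points are samples, with circle, square and triangle for replicates 1, 2 and 3, horizontal lines are means and bars are SD (n = 3). The square of D1, replicate 2, lies nearest to the D2 mean among the D1 samples for every gene but Hyou1. The margin is small for Plekhg5 and Hsp90b1. The 2 genes that passed the test are Plekhg5 and Cbr3.

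Transcription factors of the ATF4 response were higher at D2. Of the 10 listed, all measured, 10 lay above 0, 6 were higher and 0 lower at an unadjusted p under 0.05, and 8 were higher with no overlap of the groups. The median log2 difference was 1.30, against 0.00 over all genes. Cebpb, which encodes the factor C/EBP beta, read 426.6, 998.9 and 577.6 at D1 and 3349.8, 3676 and 2357 at D2, a difference of 2.20 ± 0.38. Ddit3, which encodes the death-promoting factor CHOP, read 216.1, 1178 and 485.8 at D1 and 2433, 4637 and 2517 at D2, a difference of 2.47 ± 0.67. Trib3, a pseudokinase gene that feeds back on ATF4, read 800.7, 3135 and 965.1 at D1 and 3729.9, 6516 and 4013 at D2, a difference of 1.73 ± 0.44. Each of these 3 had its highest D1 signal in replicate 2, still below the lowest D2 signal. Jdp2, a bZIP factor gene, read 375.1, 557.8 and 55.6 at D1 and 1077, 1184 and 984.6 at D2, a difference of 1.90 ± 0.50, while its other tested probe set gave 0.06. Its D1 mean lay below the chip median. Atf5 differed by 1.11 ± 0.38 and Nfil3 by 1.00 ± 0.46. Atf4 itself, whose protein is governed mainly by translation, read 17509, 16845 and 16840.0 at D1 and 19879, 19538 and 25551 at D2, a difference of 0.33 ± 0.17, with 0.80 from its other tested probe set. The groups were apart, but the unadjusted p of Atf4 was above 0.05. The adjusted p of these 7 genes ran from 0.127 to 0.652, so none passed over all genes. Without D1 replicate 2 the median was 1.71 and Cebpb (2.51, adjusted p = 0.0141), Trib3 (2.32, 0.0129) and Jdp2 (2.41, 0.0429) passed. Within the 3 same-numbered pairs the medians were 1.33, 1.05 and 1.46.

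Sequences upstream of these genes are shown because the composite element to which ATF4 and a C/EBP factor bind can be read in them. The promoters are RefSeq's on GRCm38.p6, from 250 bases before to 50 after a gene's start, and both strands were searched for TGATGNAA. This element was found in 3.97% of all 32851 promoters, and by gene in 2.87% of the 10261 tested genes with a promoter. Among list members with a promoter it was found for 4 of 10 ATF4 response transcription factors, 2 of 7 stress regulators, 2 of 14 amino acid synthesis enzymes, 2 of 11 amino acid transporters and 5 of 12 tRNA synthetases. The 250 bases before the start of Asns (chr6:7693210-7693459, minus strand) and stretches around the match for Jdp2 (chr12:85599368-85599405, plus strand), Chac1 (chr2:119351034-119351071, plus strand) and Gars (chr6:55037956-55037993, plus strand) follow, read 5′ to 3′ along the gene with the element in capitals.
Asns: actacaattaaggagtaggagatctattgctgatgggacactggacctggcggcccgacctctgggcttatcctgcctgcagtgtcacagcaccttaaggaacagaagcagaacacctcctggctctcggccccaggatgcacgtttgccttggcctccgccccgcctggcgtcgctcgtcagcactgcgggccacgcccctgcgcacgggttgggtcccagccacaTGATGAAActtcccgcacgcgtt
Jdp2: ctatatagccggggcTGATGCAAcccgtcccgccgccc
Chac1: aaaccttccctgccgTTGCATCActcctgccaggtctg
Gars: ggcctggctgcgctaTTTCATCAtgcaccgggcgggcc
In Asns and Jdp2 the element reads forward along the gene, and in Chac1 and Gars it lies on the opposite strand. It ends 15 bases before the start in Asns and 25 in Jdp2, and 185 and 22 bases before it in Chac1 and Gars. A match of letters describes the sequence and shows neither binding nor use.

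The regulators of the stress response were measured for 9 of 12 genes, of which 4 were higher and 0 lower at an unadjusted p under 0.05 and 3 higher with no overlap. Sesn2, which encodes an inhibitor of mTORC1 signalling, read 839.8, 1070.1 and 800.2 at D1 and 1994, 2390.3 and 1767 at D2, a difference of 1.14 ± 0.21 (adjusted p = 0.154). Within the same-numbered pairs it differed by 1.20, 1.12 and 1.09, a narrow range, and its other tested probe set gave 0.60. Chac1, a glutathione-degrading enzyme gene shown above, differed by 0.91 ± 0.31 and Eif4ebp1, a translation repressor gene, by 0.58 ± 0.18, with -0.06 to 0.63 over its 3 tested probe sets. Vegfa, an angiogenic ligand gene that hypoxia also drives, differed by 0.61 ± 0.25 with overlapping groups. Ppp1r15a, whose product restores translation, differed by 0.55 ± 0.32, which had an unadjusted p above 0.05. The median of the list was 0.58 and 0.85 without D1 replicate 2.

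Enzymes that make amino acids and one-carbon units were higher at D2. Of 18 listed, 16 were measured, 10 of them higher and 1 lower at an unadjusted p under 0.05, with 9 higher and 2 lower without overlap and a median of 0.60. Asns, asparagine synthetase, read 12979.5, 19885 and 15543 at D1 and 29461, 23722 and 35925 at D2, a difference of 0.88 ± 0.20. Cth, which makes cysteine from cystathionine, read 3700.0, 5369.9 and 4057 at D1 and 8204, 8134 and 7866 at D2, a difference of 0.89 ± 0.16. Psph, the last enzyme of serine synthesis, read 2179.5, 2941 and 2077 at D1 and 4279, 4584 and 4853 at D2, a difference of 0.93 ± 0.18. In these 3 genes the D2 samples lay above all D1 samples, and replicate 2 was again the highest of D1. Aldh1l2, the mitochondrial enzyme that oxidises 10-formyltetrahydrofolate, had the largest difference of the 16 and read 1569.5, 4411 and 1716 at D1 and 6513, 12678 and 7236 at D2, a difference of 1.83 ± 0.38. Shmt2, the mitochondrial serine hydroxymethyltransferase, differed by 0.69 ± 0.17, while its 4 tested probe sets ranged from -0.45 to 1.19. Glul, glutamine synthetase, went the other way and read 1784, 2206 and 1917 at D1 and 1365, 1178 and 1516 at D2, a difference of -0.53 ± 0.16. These 6 genes had adjusted p from 0.154 to 0.378. Without D1 replicate 2, Aldh1l2 (2.29, adjusted p = 0.0115), Cth (1.05, 0.0115), Psph (1.08, 0.0197), Asns (1.04, 0.0387) and Shmt2 (0.84, 0.0393) passed and Glul did not (-0.44, 0.304). The list medians within the pairs were 0.83, 0.11 and 0.78, lowest in the pair that holds D1 replicate 2.

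Of 16 measured amino acid transporters 5 were higher and 0 lower at an unadjusted p under 0.05, and the median was 0.27. Slc7a1, a carrier of cationic amino acids, read 12314, 17642 and 11066 at D1 and 29681, 27148 and 20904 at D2, a difference of 0.93 ± 0.21. Slc6a9, a glycine carrier, read 2273, 3301 and 1547 at D1 and 4753, 5000.2 and 3406 at D2, a difference of 0.92 ± 0.25. The groups were apart for both, and both passed without D1 replicate 2 (1.13, adjusted p = 0.0296, and 1.18, adjusted p = 0.0382). The neutral amino acid carriers Slc1a4 and Slc7a5 differed by 0.87 ± 0.27 and 0.93 ± 0.37 and Slc3a2, the partner chain of Slc7a5, by 0.47 ± 0.20, each with overlapping groups. Slc38a4 lay lower, at -0.27 ± 0.15, with an unadjusted p above 0.05.

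Cytosolic tRNA synthetases, which charge tRNAs with amino acids, were higher for 9 of 19 measured members at an unadjusted p under 0.05 and lower for 0, and the same numbers were apart without overlap. The median was 0.39, the pair medians were 0.45, 0.21 and 0.43, and 17 members lay above 0. Gars, the glycine enzyme, read 13488, 19823 and 16123 at D1 and 26070.2, 23835 and 32471 at D2, a difference of 0.74 ± 0.18. Cars, the cysteine enzyme, read 4218, 5284 and 5101 at D1 and 7276, 7675 and 7643 at D2, a difference of 0.63 ± 0.14. Nars, Aars, Lars and Sars, the enzymes for asparagine, alanine, leucine and serine, differed by 0.60 ± 0.15, 0.56 ± 0.14, 0.59 ± 0.16 and 0.88 ± 0.26. The adjusted p of these 6 ran from 0.227 to 0.375, and without D1 replicate 2 Nars (0.0393) and Gars (0.0485) passed.

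ER chaperones and components of the unfolded protein response had the highest count of members higher at D2 at an unadjusted p under 0.05 among the 33 lists. All 28 were measured, 19 were higher and 0 lower at an unadjusted p under 0.05, 15 were higher with no overlap and the median was 0.66. The pair medians were 0.59, 0.72 and 0.55, highest in the pair that holds D1 replicate 2, and the median was 0.73 without that sample. Among chaperones, Hsp90b1, which encodes GRP94, read 11071, 11073 and 10480.2 at D1 and 16168, 18139 and 16715 at D2, a difference of 0.64 ± 0.14. Hyou1, an exchange factor for the ER chaperone BiP, read 4209, 4226 and 7132 at D1 and 8931, 10036 and 11613 at D2, a difference of 1.00 ± 0.24, with 0.15 to 1.00 over its 3 tested probe sets. Pdia4, a protein disulfide isomerase gene, read 3136, 2772 and 4020.4 at D1 and 5318, 6184 and 7059 at D2, a difference of 0.90 ± 0.20, while its other tested probe set gave -0.25. Creld2, a secreted ER stress gene, read 2299, 1789 and 2503 at D1 and 3827, 5577 and 6569 at D2, a difference of 1.24 ± 0.27. In Pdia4 and Creld2 D1 replicate 2 was the lowest D1 sample, where in Asns, Cth and Psph it was the highest. Of the degradation machinery, Edem1, a mannosidase-like protein gene, differed by 0.97 ± 0.19 with 0.01 to 0.97 over 2 probe sets. Derl3, a retrotranslocation channel component, read 1071, 2885 and 1251 at D1 and 5099, 4824 and 5434 at D2, a difference of 1.67 ± 0.33. The adjusted p of these 6 genes ran from 0.154 to 0.281. When D1 replicate 2 was left out, Derl3 (2.09, adjusted p = 0.0105) and Edem1 (1.06, 0.0387) passed. Hspa5, which encodes BiP and is named here after its values were seen, read 33027, 25921 and 23881 at D1 and 25563, 25359.7 and 24627 at D2. These are signals of its brightest probe set, on MOE430B, with a difference of -0.12 ± 0.18, while its other 2 tested probe sets gave 0.81 and 0.84.

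The ER stress response element, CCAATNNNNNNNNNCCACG on either strand, is shown because the sensor ATF6 acts through it. It was found in 0.119% of all promoters, for 16 of the 10261 tested genes with a promoter and for 9 of the 24 such ER genes, against 0 of the 10 ATF4 response transcription factors, 0 of 14 synthesis enzymes and 0 of 12 tRNA synthetases. The 9 genes are Hspa5, Hsp90b1, Calr, Canx, Pdia6, Creld2, Dnajc3, Syvn1 and Derl3. The 250 bases before the start of Hsp90b1 (chr10:86705445-86705694, minus strand) hold 2 matches, 1 on each strand, and are shown with stretches around the single match of Creld2 (chr15:88819505-88819553, plus strand), Derl3 (chr10:75893227-75893275, plus strand) and Pdia6 (chr12:17266476-17266524, plus strand), with the whole element in capitals.
Hsp90b1: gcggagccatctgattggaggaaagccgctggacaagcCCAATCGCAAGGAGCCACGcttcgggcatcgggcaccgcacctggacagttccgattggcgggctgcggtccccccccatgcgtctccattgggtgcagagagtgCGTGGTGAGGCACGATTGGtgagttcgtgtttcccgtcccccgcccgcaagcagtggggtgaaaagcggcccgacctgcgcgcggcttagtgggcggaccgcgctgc
Creld2: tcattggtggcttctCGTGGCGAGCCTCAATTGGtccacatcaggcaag
Derl3: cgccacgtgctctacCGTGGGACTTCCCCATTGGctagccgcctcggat
Pdia6: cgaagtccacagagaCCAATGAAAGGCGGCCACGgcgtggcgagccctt
In Creld2 and Derl3 the element lies on the opposite strand and ends 107 and 137 bases before the start, and in Pdia6 it reads forward and ends 79 bases before it. Differences of these 4 genes were 0.64, 1.24, 1.67 and 0.68. Hspa5, Calr, Canx, Dnajc3 and Syvn1, which also hold the element, differed by -0.12, 0.45, 0.42, 0.37 and 0.99. Herpud1, Edem1 and Pdia4, at 1.25, 0.97 and 0.90, were not among the 9. Whether the element goes with the size of a difference was not tested. The element contains a CCAAT box, which by itself was found for 19 of the 24 ER genes, for 42.2% of the tested genes and in 37.4% of all promoters.

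**Figure D3:**
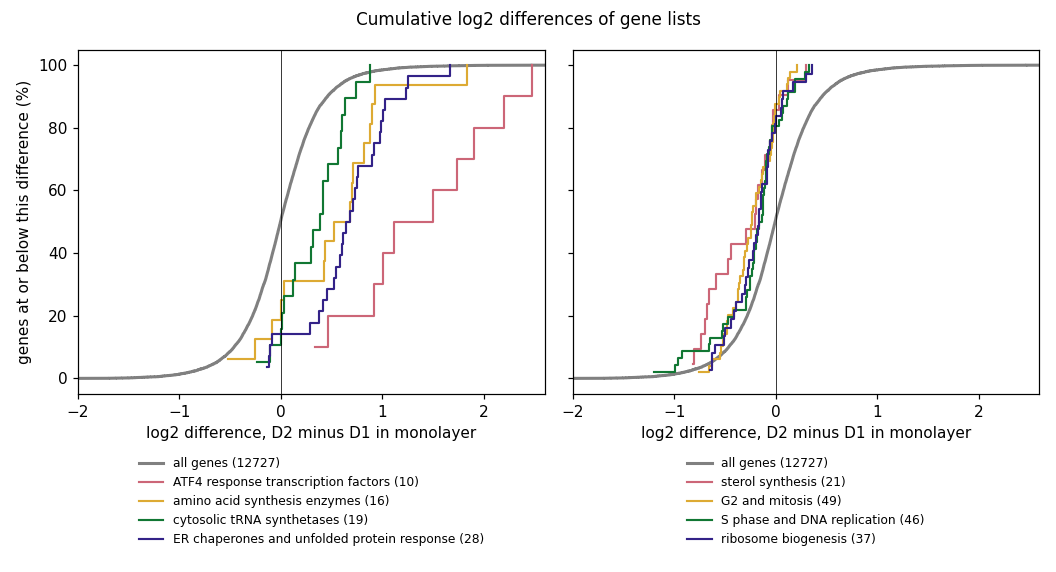
Cumulative share of genes (%) against the log2 difference, D2 minus D1 in monolayer, for 4 stress-response lists (left) and 4 growth lists (right), with all 12727 genes in grey and the number of measured members in parentheses. The left-hand lists lie to the right of the grey curve, with medians of 0.39 to 1.30, and the right-hand lists lie to its left, with medians of -0.24 to -0.15.

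The list of cytosolic and mitochondrial heat shock proteins did not share this direction. Of 19 measured members 1 was higher and 3 lower at an unadjusted p under 0.05, with a median of -0.18. The higher one was Hspa9, the mitochondrial HSP70, which read 10361, 11784 and 11318 at D1 and 17622, 17893 and 17708 at D2, a difference of 0.67 ± 0.16. Hsph1, a cytosolic HSP110 gene, read 8224, 1911 and 8259.8 at D1 and 1981, 2401 and 2954 at D2, a difference of -1.06 ± 0.43, with D1 replicate 2 at the level of D2. Without that sample Hsph1 differed by -1.75 and passed (adjusted p = 0.0111), the list median was -0.39 and 9 members were lower at an unadjusted p under 0.05. Dnajb6 and Stip1, both co-chaperone genes, differed by -0.48 ± 0.16 and -0.42 ± 0.19, and Ahsa1 and Hspb1, at -0.43 ± 0.22 and -0.25 ± 0.19, had unadjusted p above 0.05.

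Autophagy and lysosome genes were higher for 8 of 32 measured members at an unadjusted p under 0.05 and lower for 0, with 25 above 0 and a median of 0.35. Sqstm1, the autophagy receptor p62, read 4529, 5887 and 4026 at D1 and 6793, 8574 and 7212 at D2, a difference of 0.65 ± 0.18, and its other tested probe set gave -0.21. Gabarap, a ubiquitin-like protein of autophagosomes, read 4239.9, 6620.1 and 4050.1 at D1 and 7206, 8631 and 7885 at D2, a difference of 0.70 ± 0.24. Atp6v0d1, a subunit of the lysosomal proton pump, read 2113, 4373 and 2088 at D1 and 4610.4, 5309.8 and 5261 at D2, a difference of 0.90 ± 0.31. Replicate 2 was the highest D1 sample in all 3 genes and lay near D2 for Atp6v0d1. The pair medians of the list were 0.39, 0.01 and 0.53, and without D1 replicate 2 the median was 0.54 with 16 members higher at an unadjusted p under 0.05 and 0 past the test over all genes. Atp6v1h, Ctsl and Npc2 differed by 0.46 ± 0.18, 0.53 ± 0.21 and 0.43 ± 0.17, and in each at least 1 other probe set pointed the other way, at -0.07, -0.95 and -0.92.

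Sterol synthesis genes lay lower at D2. Of 21 measured members 7 were lower and 0 higher at an unadjusted p under 0.05, 5 were lower without overlap, and the median was -0.20. Hmgcs1, the enzyme before HMG-CoA reductase, read 17143, 15252 and 16016 at D1 and 5874, 15797 and 9609.6 at D2, a difference of -0.74 ± 0.27, with D2 replicate 2 at the level of D1. Nsdhl, a late sterol dehydrogenase, read 4795, 3918 and 4849 at D1 and 2703, 3098 and 1941 at D2, a difference of -0.82 ± 0.20. Idi1, isopentenyl diphosphate isomerase, read 7743, 4560.3 and 8789 at D1 and 3544, 5006 and 4244 at D2, a difference of -0.67 ± 0.25, with D1 replicate 2 within the range of D2. Lss, Dhcr7 and the cholesterol carrier Stard4 differed by -0.66 ± 0.22, -0.59 ± 0.16 and -0.80 ± 0.26, each without overlap. Their adjusted p ran from 0.299 to 0.509 over all 6 named. The pair medians were -0.36, 0.02 and -0.57, with the replicate 2 pair near 0, where Nsdhl was lower and Hmgcs1 and Idi1 higher at D2, and the median without D1 replicate 2 was -0.31. No member passed in either fit. All 17 sterol genes with a promoter held a CCAAT box, as did 42.2% of the tested genes with one. The sterol element CACCNCAC was found for 2 of the 17, Hmgcs1 and Hsd17b7, by gene for 8.10% of the tested genes and in 6.32% of all promoters. Of 15 fatty acid genes 2 were lower and 0 higher, namely Fasn, fatty acid synthase, at -0.50 ± 0.17, and the elongase gene Elovl6 at -0.55 ± 0.16, whose 3 tested probe sets ranged from -0.60 to 0.52. The median was -0.23.

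Genes of DNA replication and mitosis lay lower at D2. Of 46 measured S phase genes 8 were lower and 0 higher at an unadjusted p under 0.05, with 9 lower and 1 higher without overlap and a median of -0.15. Dut, which keeps uracil out of DNA, read 5191, 3789 and 5668 at D1 and 2854, 2323 and 2190.0 at D2, a difference of -0.97 ± 0.18. Ccne1, cyclin E1, read 42598, 13493 and 31586 at D1 and 12167, 11536 and 10542 at D2, a difference of -1.20 ± 0.35, with D1 replicate 2 near D2. Tk1, thymidine kinase, read 2550.2, 1721 and 3075 at D1 and 1333, 1050.5 and 1323 at D2, a difference of -0.93 ± 0.24. Pcna, the sliding clamp, and the ribonucleotide reductase subunits Rrm2 and Rrm1 differed by -0.53 ± 0.15, -0.99 ± 0.33 and -0.52 ± 0.20, and Mcm5, a helicase subunit, by -0.26 ± 0.19. In the fit without D1 replicate 2, Dut (-1.14, adjusted p = 0.0122), Ccne1 (-1.68, 0.0167), Tk1 (-1.16, 0.0456) and Rrm2 (-1.40, 0.0429) passed. The E2F element TTTNNCGC was found for 16 of 39 S phase genes with a promoter, for 971 of the 10261 tested genes and in 5.17% of all promoters.

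Of 49 measured genes of G2 and mitosis 15 were lower and 0 higher at an unadjusted p under 0.05, 17 were lower without overlap, and the median was -0.24. Plk1, a mitotic kinase, read 7686, 5840.0 and 6930.3 at D1 and 4461, 4742 and 3907 at D2, a difference of -0.63 ± 0.16. Kif20a, a mitotic kinesin, read 3188, 2562 and 3424 at D1 and 1662, 2079.6 and 2018 at D2, a difference of -0.65 ± 0.17. Ube2c, the ubiquitin-conjugating enzyme of the anaphase-promoting complex, read 17969.5, 11812 and 15535 at D1 and 10547, 10575 and 11149 at D2, a difference of -0.47 ± 0.15. Replicate 2 was the lowest D1 sample in all 3 and still lay above every D2 sample. Pttg1, securin, and Ccna2, cyclin A2, differed by -0.47 ± 0.15 and -0.54 ± 0.18, and Cenpa, a centromere histone, by -0.75 ± 0.24 with -0.75 to 0.25 over 3 probe sets. Adjusted p ran from 0.301 to 0.458 over these 6, and 1 member, Cenpa (-1.07, 0.0295), passed without D1 replicate 2. The pair medians were -0.28, -0.11 and -0.23, all below 0. The CHR element TTTNAA and the CCAAT box, the known elements of mitotic promoters, were each found for 31 of 41 mitosis genes with a promoter, against 3401 and 4334 of the 10261 tested genes with one and 39.7% and 37.4% of all promoters. Among S phase genes they were found for 12 and 23 of 39.

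Among cell cycle inhibitors and genes of quiescence 2 of 16 measured members were higher and 1 was lower at an unadjusted p under 0.05, with a median of 0.13. With D1 replicate 2 left out, 5 were higher and the median was -0.05. Gas5, a noncoding snoRNA host that accumulates when translation slows, read 6630.0, 16540.5 and 8162 at D1 and 21493, 19720.1 and 32026 at D2, a difference of 1.30 ± 0.34, and its 4 tested probe sets ranged from -0.35 to 1.41. Btg1, an antiproliferative gene, differed by 0.80 ± 0.33, Cdkn1b, which encodes p27, by 0.74 ± 0.35 and Ccng2 by 0.87 ± 0.42, the last 2 with unadjusted p above 0.05. Ccng1, cyclin G1 and a p53 target, read 2872, 1684 and 3119.8 at D1 and 1090.2, 1394 and 1408 at D2, a difference of -0.91 ± 0.27. Of 13 p53 targets 2 were higher and 2 lower, with Bbc3, the apoptosis gene PUMA, at 0.58 ± 0.24, Mdm2 at 0.52 ± 0.21 with -0.48 to 0.52 over 3 probe sets and Aen at -0.60 ± 0.23 with -0.84 to 0.03 over 4. Members stood on both sides of 0, with a median of 0.08, and of -0.04 with 4 higher without D1 replicate 2.

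Ribosome biogenesis genes were lower for 10 of 37 measured members at an unadjusted p under 0.05 and higher for 0, with 9 lower without overlap, a median of -0.16 and pair medians of -0.23, -0.16 and -0.19. Bop1, a factor of large subunit maturation, read 6419, 5598 and 6705 at D1 and 4716, 3514 and 4130.2 at D2, a difference of -0.60 ± 0.15. Rrp9, a U3 snoRNP protein gene, read 4567, 4114 and 4644 at D1 and 3086, 2255 and 3198 at D2, a difference of -0.65 ± 0.17. Odc1, which makes polyamines, Nhp2, a snoRNP protein gene, Polr1a, the large subunit of RNA polymerase I, and the helicase gene Ddx18 differed by -0.62 ± 0.20, -0.50 ± 0.16, -0.44 ± 0.16 and -0.41 ± 0.15, each without overlap. All 6 had an adjusted p of 0.298 to 0.507. The ribosomal proteins themselves lay slightly higher, at a median of 0.19 with 31 of 35 above 0, and the median ranged from 0.016 to 0.30 with 1 sample left out. Only Rpl14 (0.53 ± 0.19) and Rpl10a (0.45 ± 0.19) among them had an unadjusted p under 0.05, and 0 were lower, and the groups of the other 33 overlapped. Many ribosomal protein genes have processed pseudogenes, and their probe sets may read several copies.

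Of 17 NRF2 targets, the genes of the oxidative stress response, 4 were lower and 0 higher at an unadjusted p under 0.05, and for all 4 the groups were apart. Beside Cbr3 these were Gsta4, a glutathione transferase gene, which read 10905, 9734 and 11231 at D1 and 5891, 5735 and 7188 at D2, a difference of -0.76 ± 0.15, sulfiredoxin Srxn1 at -0.71 ± 0.27 and thioredoxin reductase Txnrd1 at -0.47 ± 0.19. Gsta4 passed without D1 replicate 2 (-0.82, adjusted p = 0.0382). The median of the list was -0.18. The antioxidant element TGACNNNGC was found for 5 of 12 members with a promoter, by gene for 16.6% of the tested genes with one and in 12.4% of all promoters. The 5 were Gclm, Txnrd1, Srxn1, Pgd and Me1, so Cbr3 and Gsta4 were not among them. The element was not particular to this list, as 5 of 11 amino acid transporters and 3 of 7 stress regulators held it too.

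Among pluripotency genes Nanog lay lower at D2, and Pou5f1 and Sox2 had differences above 0. Nanog, a homeobox factor of the pluripotent state, read 8466, 6239 and 9095 at D1 and 4593, 3709 and 4289 at D2, a difference of -0.90 ± 0.18 (adjusted p = 0.178), with the groups apart and differences of -0.88, -0.74 and -1.08 within the pairs. Without D1 replicate 2 it differed by -1.06 and passed (0.0233). Pou5f1, which encodes OCT4, read 25306, 29992 and 29981 at D1 and 34717, 30041 and 42476 at D2, a difference of 0.32 ± 0.16, and Sox2 5772, 4838 and 7241 at D1 and 6972, 7395 and 6693 at D2, a difference of 0.25 ± 0.16. Neither had an unadjusted p under 0.05. Of 21 measured naive pluripotency genes 2 were lower, Nanog and Dppa2 (-1.13 ± 0.43, with both group means below the chip median), and 0 higher, with a median of -0.02. Esrrb, Tcl1 and Klf5 lay higher by 0.50 ± 0.24, 0.57 ± 0.29 and 0.35 ± 0.19 without reaching an unadjusted p of 0.05. Of 18 primed epiblast genes 2 were lower and 0 higher, with a median of -0.23. Pim2, a kinase gene, read 25078, 32367 and 21147 at D1 and 17061, 15934 and 13900.3 at D2, a difference of -0.73 ± 0.20. Fgf5, a ligand of the post-implantation epiblast, read 11059, 8007 and 10076 at D1 and 4481, 8097 and 3239 at D2, a difference of -0.96 ± 0.28, with D2 replicate 2 at the D1 level. Dnmt3b, a de novo DNA methyltransferase, differed by -0.19 ± 0.14.

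Developmental signalling lists other than FGF and ERK feedback held few members at an unadjusted p under 0.05. Of 16 measured streak and endoderm genes 1 was lower, Wnt5a at -1.04 ± 0.44, and 0 higher. The median of -0.25 came from pair values of -0.20, 0.23 and -0.74, which differ in sign. Of 14 Wnt targets Lef1, a transcription factor of the pathway, lay higher at 0.67 ± 0.26 and Ccnd1, cyclin D1, lower at -0.70 ± 0.28. Among 21 genes of the Nodal, TGF-beta and BMP pathways 2 were lower and 0 higher, with a median of -0.14. The 2 were Id1 and Id4, inhibitors of basic helix-loop-helix factors that BMP induces. Id1 read 1957, 1778 and 1376 at D1 and 1075, 614.2 and 995.5 at D2, a difference of -0.91 ± 0.25, and Id4 differed by -0.74 ± 0.31, both without overlap, while Id3 differed by -0.49 ± 0.23. Without D1 replicate 2, 4 were lower. Of 18 genes of FGF and ERK feedback 2 were higher and 4 lower. The higher ones were the ERK phosphatase genes Dusp4, which read 1763, 2720.3 and 1813 at D1 and 4014, 7137 and 3280.4 at D2, a difference of 1.11 ± 0.28, and Dusp6 at 0.53 ± 0.21. The lower ones were Fgf15 (-0.83 ± 0.20), the ETS factor gene Etv4 (-1.44 ± 0.44), Fgf5 and Ccnd1, so the list held both directions. No retinoid gene of 10 measured reached an unadjusted p of 0.05, and 2 did without D1 replicate 2. Rara, a retinoic acid receptor gene, differed by 0.57 ± 0.33 and Cyp26a1, a retinoic acid hydroxylase, by -0.69 ± 0.52.

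Adhesion and cytoskeleton genes held a few higher members. Among 29 SRF and YAP targets 4 were higher and 0 lower at an unadjusted p under 0.05, with a median of 0.13. Ccn1, a matricellular YAP target, read 1333, 1541 and 2005 at D1 and 2471, 2558 and 2373 at D2, a difference of 0.61 ± 0.19, and Ccn2, its relative, 4212, 4167 and 4933 at D1 and 4998, 4744 and 6842 at D2, a difference of 0.30 ± 0.20. Ajuba, Fhl1 and Myh9 differed by 0.65 ± 0.23, 0.54 ± 0.21 and 0.58 ± 0.20, with -0.37 to 0.58 over the 5 probe sets of Myh9. Of 25 matrix and integrin genes 2 were higher and 0 lower. The first was Serpinh1, the collagen chaperone HSP47 of the ER, which read 4542, 4976 and 4248 at D1 and 7911, 7178 and 8121 at D2, a difference of 0.75 ± 0.13 (adjusted p = 0.127), and passed without D1 replicate 2 (0.81, 0.02). Its other tested probe set gave -0.06. The other was the laminin receptor subunit Itga6, which read 4786, 6989.5 and 4958 at D1 and 10761, 8396 and 8082 at D2, a difference of 0.71 ± 0.19. Of 18 epithelial genes 2 were higher and 0 lower, namely Krt18, a simple epithelial keratin, at 0.72 ± 0.20 and Esrp1, an epithelial splicing regulator, at 1.24 ± 0.36, while Cdh1, E-cadherin, differed by 0.47 ± 0.27. The count higher was 5 without D1 replicate 2. Actb, a common reference gene, differed by 0.06 ± 0.15.

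The remaining lists also held few such members. Of 14 iron genes 2 were lower, Tfrc, the transferrin receptor, at -0.35 ± 0.16 and the iron carrier Slc11a2 at -0.83 ± 0.27 with -0.83 to 0.29 over 3 probe sets. Of the 14, 6 were lower and 2 higher without overlap, with a median of -0.08. Of 23 polycomb and DNA methylation genes 1 was higher, Rnf2 at 0.53 ± 0.17, and 2 lower, Eed at -0.42 ± 0.17 and Tet3 at -1.30 ± 0.61. Of 16 imprinted genes Impact, an inhibitor of GCN2 activation, was higher and read 3041, 7114 and 3579.9 at D1 and 8368, 11098 and 11367 at D2, a difference of 1.25 ± 0.31 with 0.02 to 1.25 over 3 probe sets. Phlda2 was lower at -0.80 ± 0.27, and both passed without D1 replicate 2 (0.02 and 0.0296), with 3 members then higher and 2 lower at an unadjusted p under 0.05. Of 26 hypoxia and glycolysis genes 1, Vegfa, was higher and 0 lower. The glycolytic gene Pfkl read 8887, 31354 and 9910.2 at D1 and 23507, 30223 and 19196 at D2, so D1 replicate 2 reached the D2 level, and without it 9 members were higher at an unadjusted p under 0.05 and the median moved from 0.15 to 0.46, while over the omissions of 1 sample it ranged from -0.17 to 0.46 and so turned sign. Of 14 immediate early genes 1 was lower, Ier2 at -0.54 ± 0.16, and 0 higher. Egr1 read 1641, 337.6 and 769.4 at D1 and 386.4, 271.2 and 497.1 at D2, a difference of -0.93 ± 0.45. Of 49 nuclear oxidative phosphorylation genes 2 were higher, Ndufb5 at 0.48 ± 0.13 and Sdha at 0.47 ± 0.18, and 4 lower, among them Uqcrh, a complex III subunit, at -0.81 ± 0.19, Cox7a2 at -0.47 ± 0.16 and Cox6b1 at -0.32 ± 0.12, with a median of 0.02.

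**Figure D4:**
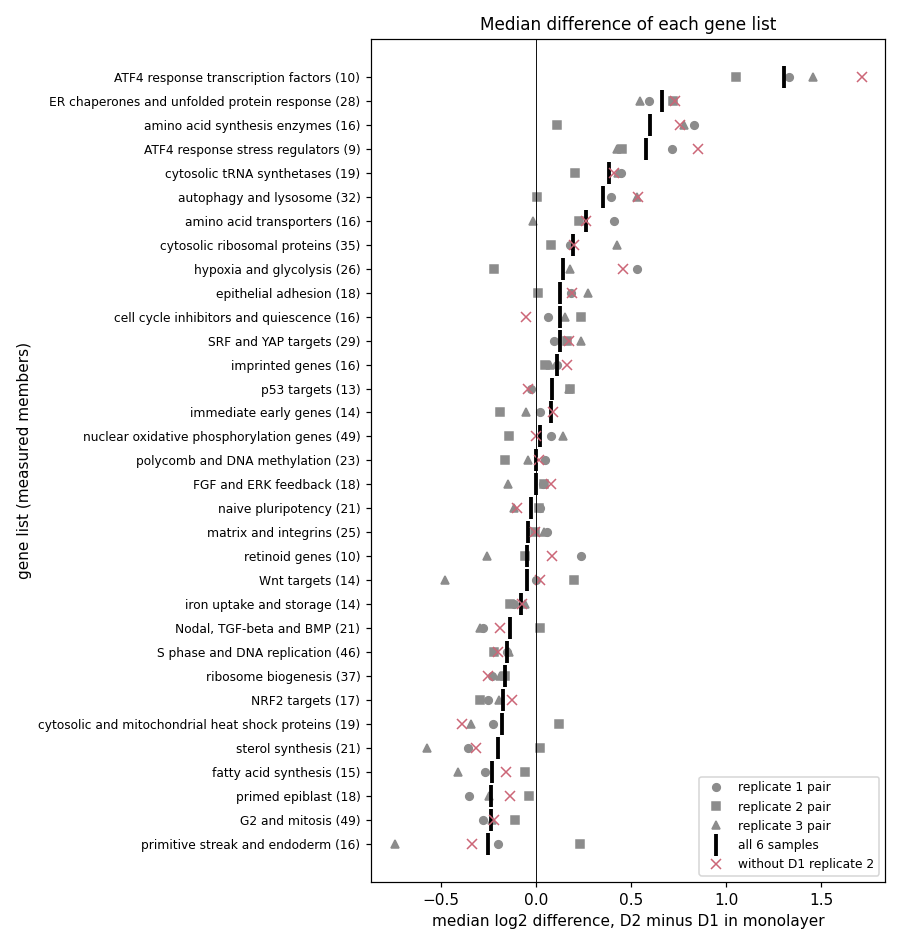
Median log2 difference, D2 minus D1 in monolayer, of 33 gene lists (number of measured members in parentheses). Black bars use all 6 samples, grey symbols the 3 same-numbered pairs and crosses the 5 samples without D1 replicate 2. The replicate 2 pair (squares) lies nearest to 0 among the pairs for amino acid synthesis, sterol synthesis and lysosome genes, while the 3 pairs lie close together for ER chaperones and G2 and mitosis.

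In suspension the same 2 stages were sampled in other RNA samples, which share no sample with the monolayer comparison. Over 12727 genes the D2 minus D1 values of both cultures had a Pearson's r of 0.199 and a Spearman's rank correlation of 0.23, a description across genes, which are no replicates. The suspension medians were 0.67 for ATF4 response transcription factors, 0.18 for amino acid synthesis, 0.02 for tRNA synthetases, 0.10 for ER chaperones, -0.18 for sterol synthesis, -0.13 for G2 and mitosis and 0.27 for autophagy and lysosome genes. When the difference between the cultures in D2 minus D1 was tested, 0 of 26516 probe sets passed (0.0%), with 966 at an unadjusted p under 0.05, so no gene was shown to differ between the cultures. By gene D2 minus D1 was larger in monolayer for 1.34% and smaller for 2.04% at an unadjusted p under 0.05, and 9 of the 28 ER genes were among the former and 0 among the latter. Of these 9, Hyou1 differed by -0.36 ± 0.24 in suspension against 1.00 ± 0.24 in monolayer and Creld2 by -0.19 ± 0.27 against 1.24 ± 0.27. Hsp90b1, which was not among the 9, differed by 0.26 ± 0.14 against 0.64 ± 0.14. Cebpb differed by 0.98 ± 0.38 in suspension, Asns by 0.51 ± 0.20, Nanog by -0.24 ± 0.18, Cbr3 by -0.36 ± 0.36 and Plekhg5 by 0.30 ± 0.22.

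**Figure D5:**
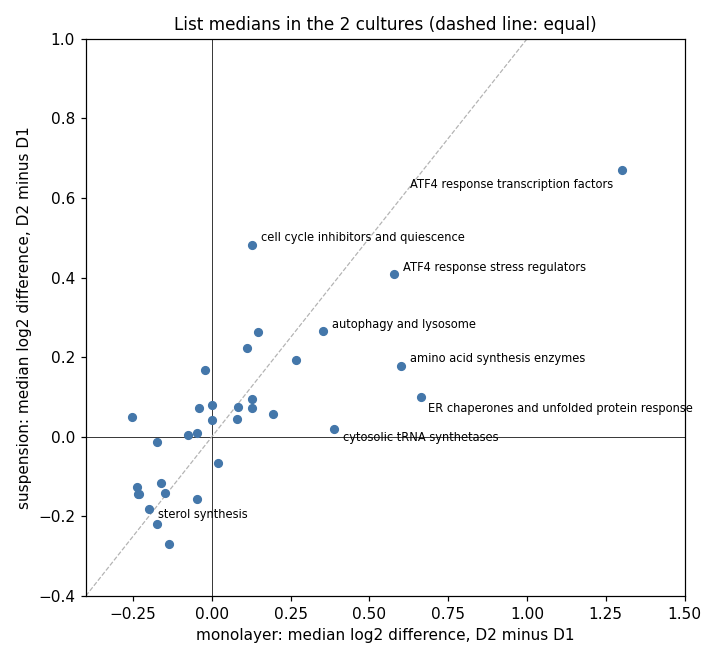
Median log2 difference, D2 minus D1, of 33 gene lists in monolayer (horizontal axis) and in suspension (vertical axis), each point a list and the dashed line marking equal values. ER chaperones lie at 0.66 in monolayer and 0.10 in suspension, and ATF4 response transcription factors at 1.30 and 0.67. The difference between the cultures was tested per probe set, where none passed, and was not tested for the lists.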

How the data were processed

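Gene expression was measured in 12 RNA samples, 3 each of monolayer D1, monolayer D2, suspension D1 and suspension D2, every RNA on 1 MOE430A and 1 MOE430B array. The deposited tables give an intensity per probe set, on a linear scale. Per the submitters' processing notes these signals come from MAS5, whose version and scaling target are not given in the sources used here. Array medians of a chip were alike in the deposited values. Each chip was fitted on its own, but the brightest probe set of a gene was chosen over both chips, whose scales differ. The mean D1 signal of the bioB control was 3657 on MOE430A and 15225 on MOE430B. The choice can thus favour probe sets of MOE430B. Each chip holds 22690 or 22575 probe sets, of which 64 controls were left out. Probe sets on both chips were taken from MOE430A only.

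Here log2(signal + offset) was fitted, with the 10th percentile of the chip's signals as the offset. Probe sets needed a signal above the chip's median, 599.8 on MOE430A and 846.4 on MOE430B, on at least 3 of 12 arrays. The fit used limma 3.58.1 (lmFit, and eBayes with an intensity trend) in R 4.3.3 with 4 group means over all 12 samples of a chip. P-values were adjusted by Benjamini-Hochberg over both chips together. The fit was run on simulated data with noise drawn independently for each sample. That setting lacks the shared deviations of same-numbered samples, so it cannot show how the fit handles them. A gene is represented by the brightest of its tested probe sets, among probe sets with 1 symbol in the platform annotation, and the text says where others disagree. Precision is limited by 3 samples a group.

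The members and lists were chosen with earlier results of these data known, so no count over a list is independent evidence. Named were genes that passed, up to 12 a direction with unadjusted p under 0.01, groups apart and a group mean above the 75th percentile of signals, up to 6 members a list with the lowest p, and 15 fixed genes, of which 2 had no tested probe set with 1 symbol. The alternatives were other offsets, scalings, filters, blocks, weights and omissions of samples and washing batches. Motifs were counted in RefSeq promoters of GRCm38.p6.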

Additional observations from a re-analysis of the deposited data

How the results depend on the processing

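The 2 calls were close to the threshold. The count of probe sets past it was 0 with 4 times the offset, 1 with quantile normalization, 0 with no filter on low signals, 0 with the stricter filter, 1 with only the 6 monolayer samples, 0 with the washing batch as a block and 33 with array weights. It was 2 with no offset, with median centring and with adjustment within each chip. Leaving out 1 monolayer sample gave 0 to 225, with 225 only for D1 replicate 2 and 0 for each of the other 5. Leaving out a whole washing batch, a fluidics station with an early or late hybridisation time, gave 140, 1 and 0. The 140 was for the batch that holds D1 replicate 2. Without monolayer D1 replicate 2 both genes stayed past the threshold, at adjusted p = 0.0105, and with each other omission of 1 sample neither did. The test of the difference between cultures gave 0 under all 20 alternatives run for it. Samples with the same number deviated together at r = 0.0732, 0.126 and 0.158 for the 3 pairs over both chips, at 0.159, 0.206 and 0.308 on MOE430A and at 0.0471, 0.0944 and 0.108 on MOE430B. The labels state no pairing, so the main fit used none. The deviations of each D1 sample from its group mean correlated best with those of the D2 sample of its own number. By the signals themselves this did not hold for D1 replicate 3, at 0.864 with D2 replicate 1 and 0.856 with D2 replicate 3. In monolayer the number is also the washing batch, but suspension D2 replicates 1 and 2 have these batches exchanged. By deviations, monolayer D1 replicate 1 correlated at 0.0829 with suspension D2 replicate 1, of another batch, and at -0.0167 with replicate 2, of its own. For monolayer D1 replicate 2 it was 0.137 with replicate 2, of another batch, and -0.0359 with replicate 1, of its own. What lies behind this was not tested. With the replicate block 193 probe sets passed, the 2 calls among them, 161 with no offset and the replicate block, and 7 with the replicate block and only the 6 monolayer samples, with neither of the 2 calls among these 7. The fits behind the 161 and the 7 were chosen after seeing the data. With the replicate block over 12 samples, 133 of all 26516 probe sets passed as higher and 60 as lower. Among list members, 8 of 28 ER genes, 5 of 19 tRNA synthetases and 4 of 16 amino acid synthesis enzymes passed as higher. So did 3 of 10 ATF4 response transcription factors and 3 of 32 autophagy and lysosome genes. As lower, 4 of 46 S phase and 3 of 37 ribosome biogenesis genes passed. Without the block 0 of each passed. The share over all genes was not counted for this fit. The replicate block left every log2 difference as it was.

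The sign of a gene turned mainly with the probe set chosen to represent it. Another tested probe set turned the sign for Aen (0.027), Atp6v1h (-0.065), Canx (-0.17), Cenpa (0.25), Ctsl (-0.95), Eif4ebp1 (-0.056), Elovl6 (0.52), Gas5 (-0.35), Hspa5 (0.81 and 0.84), Mdm2 (-0.30 and -0.48), Myh9 (-0.37 and -0.29), Npc2 (-0.92), Pdia4 (-0.25), Prkar1b (0.067), Rusc1 (1.66 and 0.0027), Serpinh1 (-0.063), Shmt2 (-0.45), Slc11a2 (0.13 and 0.29), Sptb (0.0087), Sqstm1 (-0.21) and Zhx3 (-0.11 and -0.30). The cause was not tested. Among differences near 0, Actb was -0.067 with quantile normalization, -0.032 without the late batch of station 1 and -0.030 without the early batch of station 2, and -0.015 to 0.20 with 1 sample left out. Hspa5 was 0.0064 without the early batch of station 2 and -0.22 to 0.017 with 1 sample left out. For the other genes named in the text the direction was the same under every alternative. With 1 sample left out in turn, the list median took both signs for quiescence (-0.050 to 0.28), p53 (-0.041 to 0.20), hypoxia (-0.17 to 0.46), immediate early (-0.17 to 0.17), Wnt (-0.14 to 0.18), FGF (-0.13 to 0.098), retinoid (-0.14 to 0.14), polycomb (-0.15 to 0.042), naive pluripotency (-0.099 to 0.078) and oxidative phosphorylation genes (-0.11 to 0.14) and for neuron markers (-0.58 to 0.15), and 1 sign for the other lists. How far dim signals lie above background was not known here, since detection calls were not used.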

Other observations

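Genes outside the lists also differed between the stages, and those named here were chosen after their values were seen. Several encode mitochondrial proteins. Ghitm, which encodes an inner membrane protein that maintains cristae, read 5899.8, 10658 and 6782 at D1 and 14375, 14114 and 15943 at D2, a difference of 0.97 ± 0.21. Acat1, an enzyme of ketone and isoleucine metabolism, read 982.0, 1548 and 1202 at D1 and 1867, 2377 and 2318 at D2, a difference of 0.80 ± 0.19, and Acot2, an acyl-CoA thioesterase, read 5488, 8476 and 8421 at D1 and 14925, 25772 and 21719.6 at D2, a difference of 1.46 ± 0.29. The groups were apart in all 3 genes. Their limma adjusted p was 0.224, 0.272 and 0.154, so none passed, and it was 0.0129, 0.0368 and 0.0393 without D1 replicate 2.

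Among regulators of RNA and chromatin, Zc3hav1, an antiviral RNA-binding protein gene, read 5761, 7385 and 8754 at D1 and 19328, 19439.8 and 20826 at D2, a difference of 1.45 ± 0.26, and Hexim1, an inhibitor of the elongation kinase P-TEFb, read 1179.6, 1336 and 1614 at D1 and 2449.8, 2799 and 2470.0 at D2, a difference of 0.89 ± 0.15. Phf10, a subunit of a BAF chromatin remodeller, differed by 1.06 ± 0.17. Lower at D2 lay Slc39a10, a zinc importer gene, which read 25729, 21353 and 24922 at D1 and 10956, 13902 and 10049 at D2, a difference of -1.05 ± 0.21, and Smoc1, a secreted calcium-binding protein gene, which read 856.2, 1184 and 779.8 at D1 and 261.6, 186.4 and 397.9 at D2, a difference of -1.60 ± 0.30. The adjusted p of these 5 genes was 0.127, 0.127, 0.127, 0.154 and 0.154, and in suspension they differed by 0.44 ± 0.26, 0.23 ± 0.15, 0.36 ± 0.17, -0.81 ± 0.21 and -0.24 ± 0.30.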
